A study of Mus musculus with 2 samples.

Results

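Cytochrome P450 enzymes outside family 4 were described in single cells of postischemic mouse kidney. The group was taken by gene symbol, as every listed symbol that begins with Cyp and a digit, leaving out the 21 family 4 genes and pseudogenes, and held 80 of the 32285 genes in the tables. All 80 were annotated as protein coding. By role, 60 belonged to families 1, 2 and 3, whose enzymes oxidise drugs, fatty acids and eicosanoids. The other 20 were 6 bile acid and oxysterol enzymes, 6 steroid hormone enzymes, 3 vitamin D enzymes, 3 retinoic acid enzymes, the sterol demethylase Cyp51 and Cyp20a1, whose substrate is not known.

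P450 enzymes are heme proteins that insert an oxygen atom into a substrate. Those of the endoplasmic reticulum draw electrons from the reductase encoded by Por, and those of the mitochondrion draw them from the ferredoxin encoded by Fdx1. The kidney is best known for a pair of mitochondrial members: Cyp27b1, which makes active vitamin D, and Cyp24a1, which inactivates it. The proximal tubule also expresses enzymes that oxidise arachidonic acid and foreign compounds.

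The data came from 2 male C57BL/6 mice aged 9 weeks, both subjected to bilateral renal ischemia-reperfusion surgery and sacrificed 24 h later. Immediately before reperfusion, 1 mouse received saline into the peritoneal cavity (control) and 1 received 100 mg/kg of JPI-289, an inhibitor of poly(ADP-ribose) polymerase, by the same route. There was no sham-operated or uninjured kidney among these libraries. With 1 library per group, no difference between the libraries could be tested, mouse and treatment cannot be told apart, and every interval below is a 95% interval that covers counting error only.

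Kidney cells were captured with a 5′ droplet kit, in which each counted UMI (unique molecular identifier) marks 1 captured transcript molecule, so levels of different genes are given as UMIs of the gene per 1000000 UMIs of the cells (CPM) without division by gene length. The control library held 38328760 UMIs and 3751 cells with a median of 2054 UMIs, and the JPI-289 library held 35548396 UMIs and 5038 cells with a median of 1866.5. The libraries shared 23 cell barcodes. Of 26 clusters built without P450 genes, 21 were named by fixed marker lists, among them 7 called proximal tubule (PT)-like, with 1803 control and 1644 JPI-289 cells. All 20 PT markers had a UMI in the PT-like cells of each library, but their summed level was 21490 CPM in the control and 6889 CPM with JPI-289. Summed injury markers, among them Havcr1 and Krt20, stood at 8900 and 13827 CPM. At least 96.0% of the cells of every PT-like cluster came from 1 library, so the clusters may be libraries rather than kinds of cell.

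Upstream sequence is shown for 5 members whose levels carry the differences below. It runs through the 250 bases before the RefSeq transcription start, in build GRCm38.p6, and RefSeq's table held such an entry for 64 of the 80 members. Capitals mark matches to an HNF4 direct repeat (AGGTCA, any base, AGGTCA) with up to 2 mismatches, or to the TATA box (TATAAA), searched on both strands. HNF4 is a transcription factor of liver and proximal tubule. The first sequence, of Cyp27b1 (chr10:127047996-127048245, + strand), held no match to these letters. Other forms of the TATA box were not searched. The second, of Cyp2e1 (chr7:140763569-140763818, + strand), held a TATA box 31 to 26 bases before the start. The third, of Cyp2d9 (chr15:82452127-82452376, + strand), held an HNF4 match 54 to 42 bases before the start and a TATA box on the minus strand. The GENCODE annotation, used for gene positions below, places some starts elsewhere. It starts Cyp2e1 at chr7:140763739, so the end of that window, with its TATA box, lies inside the annotated gene. The Cyp2d9 window lies wholly inside its annotated gene (chr15:82433437-82456845).
Cyp27b1: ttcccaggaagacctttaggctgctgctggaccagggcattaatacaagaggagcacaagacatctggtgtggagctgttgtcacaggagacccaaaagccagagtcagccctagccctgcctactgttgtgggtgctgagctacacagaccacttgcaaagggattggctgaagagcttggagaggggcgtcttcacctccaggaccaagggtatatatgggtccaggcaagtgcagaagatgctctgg
Cyp2e1: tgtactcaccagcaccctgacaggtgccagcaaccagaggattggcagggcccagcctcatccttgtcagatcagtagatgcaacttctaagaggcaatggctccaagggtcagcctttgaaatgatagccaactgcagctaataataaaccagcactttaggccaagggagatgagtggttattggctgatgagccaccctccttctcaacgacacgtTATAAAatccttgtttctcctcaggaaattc
Cyp2d9: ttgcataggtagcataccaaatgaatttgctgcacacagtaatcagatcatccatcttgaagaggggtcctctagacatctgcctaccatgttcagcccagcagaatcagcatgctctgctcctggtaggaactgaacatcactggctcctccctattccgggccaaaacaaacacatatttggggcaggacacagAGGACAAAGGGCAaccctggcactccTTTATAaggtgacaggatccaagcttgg

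Across all 27025 upstream windows in the table, an HNF4 match was present in 3.18% and in 9 of the 64 member windows. TATAAA was present in 13.0% of all windows and in 27 of 64, and a TNGCGTG element, bound by the aryl hydrocarbon receptor (AHR), in 4.16% of all windows and in 1 of 64. These matches describe the letters alone.

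Cyp2a4 and Cyp2a5 are shown because their reads are hard to tell apart. Their windows (chr7:26306942-26307191 and chr7:26835089-26835338, both + strand) matched at 245 of 249 aligned bases, and capitals here mark the 4 bases that differ. Each also held a TATA box, left in small letters, 28 to 23 bases before the start in Cyp2a4 and 29 to 24 in Cyp2a5.
Cyp2a4: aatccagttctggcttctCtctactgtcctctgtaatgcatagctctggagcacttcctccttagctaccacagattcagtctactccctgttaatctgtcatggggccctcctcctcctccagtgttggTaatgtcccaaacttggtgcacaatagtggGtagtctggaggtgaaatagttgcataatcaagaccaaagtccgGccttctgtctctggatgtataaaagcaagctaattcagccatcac
Cyp2a5: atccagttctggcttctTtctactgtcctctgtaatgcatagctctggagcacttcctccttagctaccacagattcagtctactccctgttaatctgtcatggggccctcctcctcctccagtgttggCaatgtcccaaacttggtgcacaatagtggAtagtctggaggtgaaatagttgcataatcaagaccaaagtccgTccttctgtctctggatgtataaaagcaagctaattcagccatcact
The transcripts of the pair were 98.3% identical, so the split of UMIs between them is uncertain. Of their 50-base stretches, Cyp2d9 shared 27.8% and Cyp2d12 15.8% with other members, and each shared the most with the other. By identity of aligned bases, Cyp2d9 was closest to Cyp2d11, at 93.4%. In the first 500 bases the shares were 27.9% and 3.99%. The split of UMIs between these genes and their relatives is likewise uncertain. Beyond these genes, no named member shared more than 10.5% of such stretches over the whole transcript with other members. In the first 500 bases, Cyp1a1 shared 17.5%.

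Every member was accounted for. No UMI of 37 members was found in any barcode of either library. They included Cyp7a1 and Cyp8b1, enzymes of hepatic bile acid synthesis, Cyp11b1 and Cyp11b2, which make corticosterone and aldosterone, Cyp19a1, the aromatase, and the liver enzyme Cyp1a2. The steroid hormone members that were seen had at most 5 UMIs in the cells of a library and were therefore not compared. The other 43 members had at least 1 UMI in cells, 38 of them in PT-like cells. In those cells 16 members had 1 to 19 UMIs over both libraries and 22 had at least 20, the minimum for a ratio.

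P450 transcripts were a small share of the PT-like cells' RNA. The members together stood at 1177 CPM (1154 to 1201) in the control and 968 CPM (946 to 991) with JPI-289. Within that sum the order of the genes changed. In the control, Cyp2j5 made up 26.5% of the member UMIs, Cyp2e1 15.3%, Cyp2a5 14.6%, Cyp24a1 11.7% and Cyp27b1 9.80%. With JPI-289, Cyp2e1 made up 38.5% and Cyp2a5 26.1%, while Cyp2j5 made up 9.78%.

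Of the 22 members with at least 20 UMIs in PT-like cells, 12 were at least 2-fold lower with JPI-289, beside 23.7% of the 11311 genes with as many UMIs. At least 2-fold higher were 5 members, beside 9.09% of all genes. The median log2 ratio of the 22 members was −1.03, and that of all genes was −0.20. Centred on the latter, 9 members were at least 2-fold lower and 6 higher, beside 19.4% and 13.4% of all genes on that scale. The members below that are called 2-fold lower or higher are called on the uncentred scale, on which Cyp27a1, Cyp2j6, Cyp2j11 and Cyp2e1 lay within 0.20 beyond the limit, and Cyp3a13, at 0.82, within 0.20 short of it. Cyp2e1 kept the 2-fold call in 15 of 22 alternative settings in PT-like cells. These 22 include settings that could not change a ratio. They are minimums of 100 and 1 UMIs, and leaving out PT-like clusters led by the injury list, as none was.

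**Figure D1:**
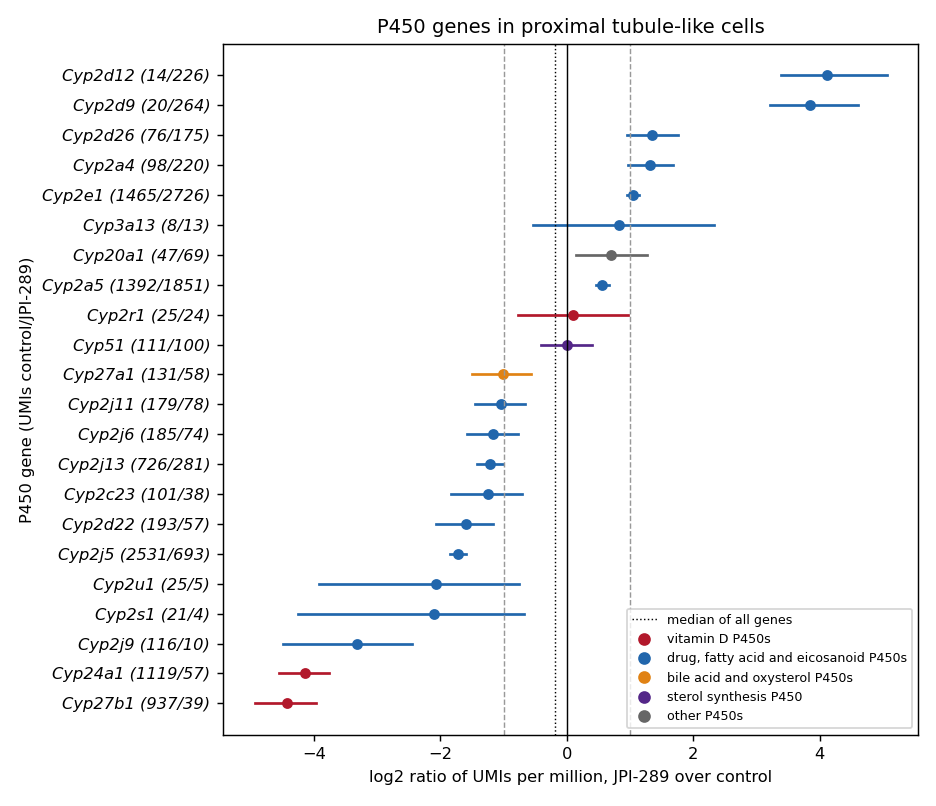
P450 genes with at least 20 UMIs in PT-like cells, as the log2 ratio of CPM, JPI-289 over control (x axis), with 95% intervals of counting error, 1 library each. The UMIs in control and JPI-289 stand beside each symbol, dashed lines mark 2-fold, and the dotted line marks the median of all genes. Cyp27b1 and Cyp24a1 lie lowest at −4.42 and −4.13, and Cyp2d12 and Cyp2d9 highest at 4.12 and 3.84.

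The vitamin D pair stood furthest below the control. Cyp27b1 (chr10:127048250-127053006, + strand) had 937 UMIs in the control and 39 with JPI-289, which gave 115 and 5.33 CPM. It was 21.4-fold lower with JPI-289 (log2 ratio −4.42, −4.94 to −3.97). Cyp24a1 (chr2:170482708-170497145, − strand) had 1119 and 57 UMIs, or 138 and 7.79 CPM, and was 17.5-fold lower (log2 ratio −4.13, −4.56 to −3.76). The enzyme that makes active vitamin D and the enzyme that degrades it were thus both lower, in cells of the same class. Cyp2r1, an enzyme of the preceding step that is known best from liver, had 25 and 24 UMIs, with a log2 ratio of 0.09 whose interval ran from −0.78 to 0.96.

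The levels of the PT-like clusters, each nearly all from a single library and so part of a single mouse, followed the same direction. Cyp27b1 stood at 111, 120, 333 and 19.7 CPM in the 4 control clusters and at 8.60, 7.37 and 0.39 CPM in the 3 JPI-289 clusters. For Cyp24a1 the control clusters stood at 176, 156, 142 and 55.8 CPM and the JPI-289 clusters at 6.96, 13.0 and 3.52 CPM. The ranges did not overlap for either gene. Together with Cyp2c23, they were the 3 of 22 members whose JPI-289 clusters all lay below the control clusters, as did those of 16.3% of all genes, a share near which the members' count lies. Leaving out each PT-like cluster in turn gave log2 ratios of −4.93 to −3.83 for Cyp27b1 and −4.65 to −3.76 for Cyp24a1. Over all barcodes, with no cell called, the ratios were −3.67 and −4.29.

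The control cluster with the highest Cyp27b1 level, 333 CPM, was led by Slc5a12 and the noncoding RNA Gm26917. A cluster led by Neat1 and Malat1, noncoding RNAs of the nucleus, was left unnamed and held 51 control and 302 JPI-289 cells. Its leading marker list was that of distal convoluted and connecting tubule, with a score of 2.13, beside 0.46 for PT. Cyp27b1 stood at 27.5 CPM in its JPI-289 cells, from 25 UMIs in 18 of 302 cells. Counted with the PT-like cells, that cluster moved the log2 ratio of Cyp27b1 to −3.87 and left that of Cyp24a1 at −4.16.

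Shares of cells with a UMI gave the same order. After thinning to 1000 UMIs a cell, 1342 control and 1137 JPI-289 PT-like cells remained, and 461 and 507 shallower ones were set aside. Cyp27b1 was then seen in 11.8% of control cells and 0.88% of JPI-289 cells (23.0% and 1.76% unthinned). In neutrophils, which should lack it and had a median of 1973 and 2034 UMIs beside 2231 and 1845 in PT-like cells, it was seen in 0 of 177 cells, which allows a share of up to 1.69%, and in 0.17%. Cyp24a1 was seen in 11.1% and 0.62% of thinned PT-like cells (22.6% and 2.55% unthinned), and in 2.26% of control neutrophils and 0 of 580 JPI-289 neutrophils, which allows up to 0.52%. With JPI-289, the thinned Cyp24a1 share thus lay near the upper bound of the neutrophils. Unthinned, it was 2.55% in PT-like cells and 0.15% in neutrophils of that library. In the control, 22 of the 1342 thinned cells held both transcripts, and Cyp27b1 was seen in 14.8% of cells with Cyp24a1 and 11.5% of the others.

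**Figure D2:**
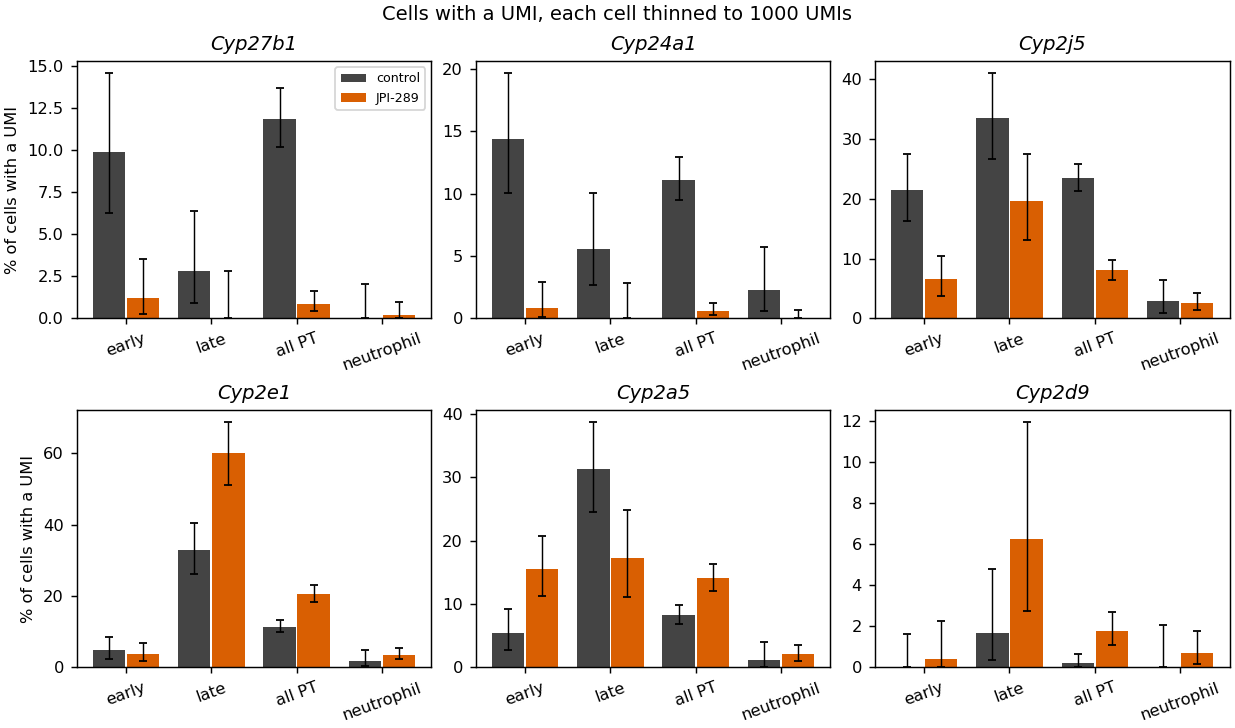
Percentage of cells with a UMI of 6 P450 genes after each cell was thinned to 1000 UMIs (y axes), in early and late segment clusters, all PT-like cells and neutrophils (x axes), with exact binomial 95% intervals. Among all PT-like cells Cyp27b1 was seen in 11.8% with saline and 0.88% with JPI-289, and Cyp2e1 in 11.5% and 20.6%.

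Several other genes of vitamin D handling were lower in PT-like cells. Of 9 genes on that list, 5 were at least 2-fold lower with JPI-289, beside 23.7% of all genes, and 1 was higher, beside 9.09%, with a median log2 ratio of −1.60. The endocytic receptors that take up vitamin D with its binding protein had log2 ratios of −3.71 (Cubn) and −2.85 (Lrp2). The parathyroid hormone receptor Pth1r stood at −2.28, the vitamin D receptor Vdr at −1.60 and the FGF23 co-receptor Kl at −2.45. The phosphate transporter Slc34a3 had 14 and 69 UMIs, a log2 ratio of 2.41 (1.61 to 3.40), while Slc34a1 stood at −0.89, Fgfr1 at −0.13 and Rxra at 0.31. Of these genes, Lrp2, Cubn and Slc34a1 are themselves on the list of PT markers, so they are part of the PT marker sum given above. The lower values went together with that lower sum and the higher injury sum, whose part in the difference was not tested.

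The Cyp2j genes encode epoxygenases of arachidonic acid and lie side by side on chromosome 4 (chr4:96027534-96664154). Of their 8 members, 5 had at least 20 UMIs, and all 5 were at least 2-fold lower with JPI-289, beside 23.7% of all genes. Cyp2j5, an abundant kidney member, had 2531 and 693 UMIs, or 311 and 94.7 CPM, and was 3.29-fold lower (log2 ratio −1.72, −1.84 to −1.60). The log2 ratios were −1.22 for Cyp2j13 (726 and 281 UMIs), −1.17 for Cyp2j6 (185 and 74 UMIs) and −1.04 for Cyp2j11 (179 and 78 UMIs). Cyp2j9 stood at −3.32, from 116 and 10 UMIs, but 75 of the control UMIs lay in the cluster led by Slc5a12, without which its ratio was −1.97. Without the JPI-289 cluster led by Inmt and Kap, the ratios of Cyp2j5, Cyp2j13 and Cyp2j11 were −2.69, −2.48 and −2.96, while that of Cyp2j6 fell short of 2-fold, at −0.94. Cyp2j6 also fell short without the JPI-289 cluster led by Srxn1 and Plin2, at −0.98, and without the control cluster led by Slc5a12, at −0.996. Cyp2j11 and Cyp2j13 were less than 2-fold lower, at −0.57 and −0.88, without the JPI-289 cluster led by the fibrinogen gene Fgb, and at −0.60 and −0.85 without the one led by Srxn1 and Plin2. Of 22 alternative settings in PT-like cells, Cyp2j11 kept the 2-fold call in 15, Cyp2j6 in 17 and Cyp2j13 in 19. These counts include the settings named above that could not change a ratio.

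The cluster levels of Cyp2j5 overlapped between libraries. It stood between 127 and 774 CPM in the control clusters and between 43.8 and 181 CPM in the JPI-289 clusters. In thinned cells it was seen in 23.5% of the PT-like cells of the control and in 8.004% with JPI-289 (46.0% and 19.6% unthinned), while neutrophils showed 2.82% and 2.59%.

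Cyp2c23, the other main epoxygenase of mouse kidney, had 101 and 38 UMIs, or 12.4 and 5.19 CPM, and a log2 ratio of −1.25 (−1.84 to −0.71). It lay between 9.23 and 15.9 CPM in the control clusters and between 3.47 and 6.25 CPM in the JPI-289 clusters. Of the 14 Cyp2c genes that lie together on chromosome 19 (chr19:39007019-40187333), apart from Cyp2c23, none reached 20 UMIs, and 11 had none. Both epoxide hydrolases, which open the epoxides that Cyp2c and Cyp2j enzymes form, were lower as well. Ephx2 had 2777 and 1173 UMIs (log2 ratio −1.09) and Ephx1 had 221 and 14 (−3.78). In the early segment clusters described below, the interval of Ephx2 held 0 (−0.14, −0.41 to 0.11). In the late ones it stood at −0.997.

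A second group of family 2 members was higher with JPI-289. On chromosome 15 (chr15:82370527-82794294), 4 of the 8 Cyp2d genes had at least 20 UMIs. Of these, 3 were at least 2-fold higher, beside 9.09% of all genes, and 1 was lower, beside 23.7%. Cyp2d12 had 14 and 226 UMIs, or 1.72 and 30.9 CPM, and was 17.3-fold higher (log2 ratio 4.12, 3.39 to 5.06). Cyp2d9, a gene known for its male-biased expression, had 20 and 264 UMIs, or 2.46 and 36.1 CPM, and was 14.3-fold higher (log2 ratio 3.84, 3.22 to 4.61). Cyp2d26 had 76 and 175 UMIs and a log2 ratio of 1.35 (0.96 to 1.76). Cyp2d22, at the end of the same run of genes, had 193 and 57 UMIs and a log2 ratio of −1.60 (−2.06 to −1.18).

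Of this group, Cyp2d12 alone was higher in every JPI-289 cluster (17.6 to 50.03 CPM) than in any control cluster (0.57 to 5.07 CPM), as were 8.66% of all genes. Cyp2d9 was concentrated in the JPI-289 cluster led by Inmt and Kap, which held 241 of its UMIs at 94.2 CPM, and stood at 4.09 and 3.04 CPM in the other JPI-289 clusters. Without that cluster its log2 ratio was 0.97. In the control, 18 of its UMIs lay in the cluster led by Slc22a6, at 10.1 CPM, and without that cluster the ratio was 6.50. Cyp2d26 fell short of 2-fold, at 0.71, without the JPI-289 cluster led by Fgb.

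On chromosome 7, Cyp2e1 (chr7:140763739-140774987, + strand) and the pair Cyp2a4 and Cyp2a5 had higher levels with JPI-289 over all PT-like cells. These differences changed with the clusters that were counted. Cyp2e1, which oxidises ethanol and small solvents, had 1465 and 2726 UMIs, or 180 and 372 CPM, and was 2.07-fold higher (log2 ratio 1.05, 0.95 to 1.14). Cyp2a5, a coumarin hydroxylase, had 1392 and 1851 UMIs, or 171 and 253 CPM, and a log2 ratio of 0.56 (0.46 to 0.66). Cyp2a4, a steroid hydroxylase, had 98 and 220 UMIs and a log2 ratio of 1.31 (0.97 to 1.68). Each PT-like cluster was nearly all of 1 library, so leaving 1 out changed the mix of cells in that library alone. Without the JPI-289 cluster led by Inmt and Kap, the ratios of Cyp2e1 and Cyp2a4 were −0.55 and −1.30. Without the control cluster led by Slc22a6, the ratios were 1.98 for Cyp2e1, 3.81 for Cyp2a4 and 1.79 for Cyp2a5. The difference of Cyp2a5 was near 0 without the JPI-289 cluster led by Inmt and Kap, at 0.07, and without the control cluster led by G6pc and Slc4a4, at 0.05. Without that control cluster, Cyp2e1 and Cyp2a4 stood at 0.56 and 0.55.

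**Figure D3:**
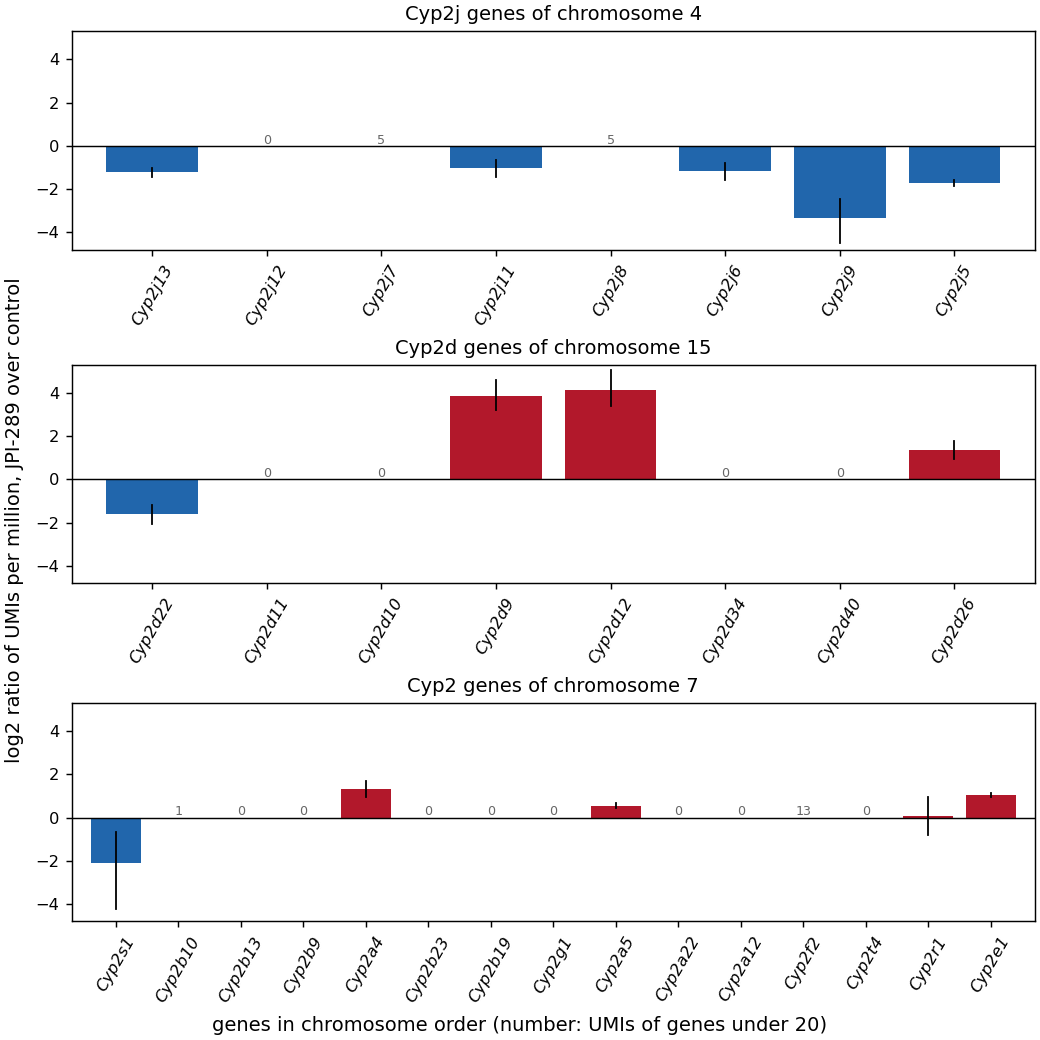
Log2 ratio of CPM in PT-like cells, JPI-289 over control (y axis), for family 2 P450 genes in their order on chromosomes 4, 15 and 7 (x axis), with 95% intervals of counting error. Numbers mark genes with fewer than 20 UMIs and give those UMIs. All 5 bars on chromosome 4 point down, while 3 of 4 on chromosome 15 point up. Of all genes, 23.7% were at least 2-fold lower and 9.09% at least 2-fold higher.

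Cyp51, the sterol demethylase of cholesterol synthesis, had 111 and 100 UMIs, at 13.7 CPM in each library, and a log2 ratio of 0.00 with an interval from −0.40 to 0.40. Among 21 other genes of cholesterol synthesis and its control, 9 were at least 2-fold lower, among them Sqle (−2.83) and Hmgcs1 (−2.21), and 1 was higher, Msmo1 (1.08), beside 23.7% and 9.09% of all genes, with a median of −0.40. Cyp27a1, a mitochondrial sterol hydroxylase of bile acid synthesis, had 131 and 58 UMIs and a log2 ratio of −1.02 (−1.497 to −0.57). It stood at the 2-fold limit and reached it in 15 of 22 alternative settings, including those that could not change a ratio. Cyp20a1 had 47 and 69 UMIs and a log2 ratio of 0.70, which was −0.18 over all barcodes. Cyp1a1, the standard target of AHR, had 2 UMIs in PT-like cells of the control and 0 with JPI-289, which is too few for a ratio. Of the AHR pathway's 5 listed genes, 4 had at least 20 UMIs and 1 of these was at least 2-fold lower, Ahr itself (36 and 10 UMIs, −1.65), a share near the 23.7% of all genes.

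Most electron donors and partner proteins lay between the all-gene median and the 2-fold limit. Of 10 such genes, 2 were at least 2-fold lower, the epoxide hydrolases above, a share near the 23.7% of all genes, and none was higher, with a median log2 ratio of −0.67. Por had 1224 and 608 UMIs (−0.86), Cyb5a 16359 and 9722 (−0.60), Fdx1 2505 and 1676 (−0.43) and Fdxr 65 and 35 (−0.73). Of 7 listed nuclear receptors that regulate P450 genes, 6 had at least 20 UMIs and 4 were at least 2-fold lower, beside 23.7% of all genes, namely Nr1i2 (−2.24), Nr1h4 (−2.13), Hnf4a (−1.78) and Ppara (−1.42). Hnf4a is also on the list of PT markers.

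The PT-like cells were also clustered within each library, and a cluster was named early (S1 and S2) or late (S3) where 1 of the segment marker lists stood out. A marker of that list also had to be among the cluster's 10 leading genes, and no other class could have more markers there. A JPI-289 cluster of 245 cells with a late score of 0.89 and a control cluster of 365 cells with an early score of 0.53 failed this second rule. Both were left in neither segment. In the control, 223 cells were early and 191 late, and with JPI-289 320 were early and 130 late, while 1389 and 1194 cells were in neither. The markers given next are from the lists that named the clusters, so their direction was partly set by the naming. Not all of them followed it. The late transporter Slc7a13 stood at 21.8 and 58.6 CPM in the late clusters and at 0.38 and 0 CPM in the early ones. The early glucose transporter Slc5a2 stood at 330 and 594 CPM in the early clusters and at 92.1 and 11.2 CPM in the late ones, but early markers Slc5a12 and Gatm, at 274 and 293 CPM in the control, were at 6.66 and 5.55 CPM in the early cluster with JPI-289. Slc22a6, listed as early, was higher in the late clusters. Median depth also differed, at 10184 and 1876 UMIs per cell in the early clusters and 5424 and 9163 in the late ones. The median mitochondrial share of UMIs was 14.4% and 4.79% in the early and 9.63% and 1.75% in the late clusters. Injury markers summed to 13730 and 36316 CPM in the early clusters and to 6087 and 4384 CPM in the late ones.

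In the control library, 16 members had at least 20 UMIs over both segments. At least 2-fold higher in the late cluster were 3, beside 3.99% of all genes, and at least 2-fold lower 3, beside 5.55%. Higher were Cyp2e1, at 81.9 CPM in the early and 471 CPM in the late cluster (5.74-fold), Cyp2a5, at 99.04 and 495 CPM (4.99-fold), and Cyp2a4, from 2 and 87 UMIs (log2 ratio 5.65, 4.06 to 9.03). Lower were Cyp27b1, at 112 and 22.9 CPM (4.86-fold), Cyp24a1, at 174 and 50.7 CPM (3.41-fold), and Cyp2d26, from 42 and 5 UMIs (log2 ratio −2.43).

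With JPI-289, 12 members could be compared between segments. At least 2-fold higher in the late cluster were 6, beside 19.6% of all genes, and lower 2, beside 7.32%. Cyp2e1 stood at 35.5 CPM in the early and 874 CPM in the late cluster, a 24.2-fold difference (log2 ratio 4.60, 4.12 to 5.18). Cyp2d9 had 1 early and 108 late UMIs (log2 ratio 5.51, 3.58 to 11.4) and Cyp2a4 2 and 108 (log2 ratio 4.77, 3.20 to 8.15). Cyp2j11, Cyp2j13 and Cyp2j5 were also higher in the late cluster, with log2 ratios of 2.25, 1.65 and 1.03, and Cyp2d22 and Cyp2d26 were lower, with −2.64 and −2.90. Cyp2a5 was less uneven here, at 268 and 355 CPM (log2 ratio 0.40). Thus Cyp2e1 and Cyp2a4 were higher in the late cluster, and Cyp2d26 in the early cluster, of both libraries.

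**Figure D4:**
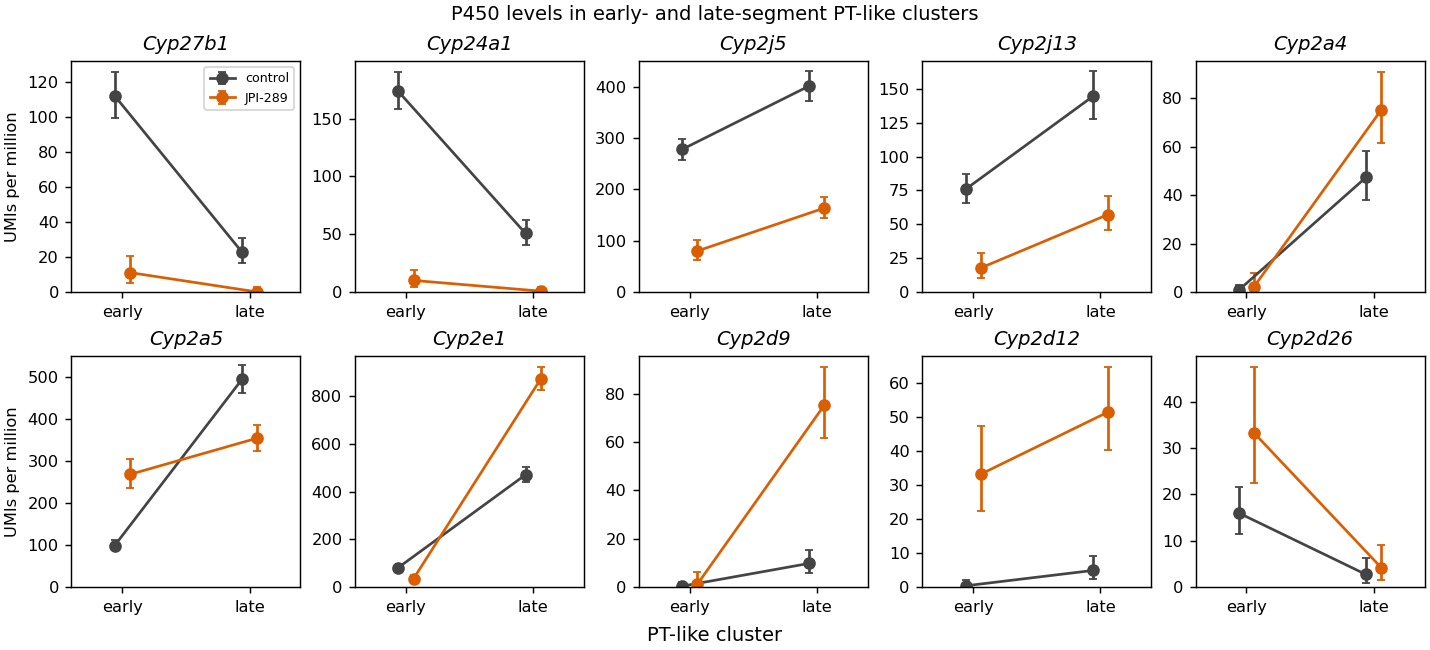
Levels in CPM (y axes) of 10 P450 genes in early and late segment PT-like clusters (x axes) of the control and JPI-289 libraries, with exact Poisson 95% intervals. Cyp27b1 and Cyp24a1 stood at 112 and 174 CPM in the early control cluster, above every other cluster drawn, while Cyp2e1 reached 874 CPM in the late JPI-289 cluster.

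Within the early segment, 7 of 15 members were at least 2-fold lower with JPI-289, beside 23.6% of all genes, and 3 were higher, beside 8.15%. Within the late segment, 9 of 17 were lower, beside 18.3%, and 2 were higher, beside 20.3%. The medians were −0.81 and −1.15, and those of all genes −0.22 and 0.12. Cyp27b1 was 9.66-fold lower in the early clusters, with 295 and 10 UMIs. In the late clusters it had 42 and 0 UMIs, which is at least 10.9-fold lower if the zero is read as 3 UMIs in the JPI-289 library. Cyp24a1 had 456 and 9 UMIs in the early clusters (log2 ratio −4.04) and 93 and 1 in the late ones (log2 interval −11.5 to −3.67). Cyp2j5 was lower in both segments as well, at 278 and 79.9 CPM in the early and 402 and 164 CPM in the late clusters. Cyp2d12 was higher in both, with 1 and 30 UMIs in the early (log2 ratio 5.89, 3.86 to 11.8) and 9 and 74 in the late clusters (3.33, 2.39 to 4.58). Cyp51, whose log2 ratio was 0.00 over all PT-like cells, was not even across them. It had 40 and 11 UMIs in the early (−0.27) and 35 and 12 in the late clusters (−1.15). In cells of neither segment it had 36 and 77.

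The ratios of Cyp2e1 and Cyp2a5 had opposite signs in the 2 segments. Cyp2e1 was lower with JPI-289 in the early clusters, at 81.9 and 35.5 CPM (log2 ratio −1.19, −1.79 to −0.67), and higher in the late ones, at 471 and 874 CPM (0.89, 0.76 to 1.02). Cyp2a5 was higher in the early clusters, at 99.04 and 268 CPM (1.44, 1.18 to 1.70), and lower in the late ones, at 495 and 355 CPM (−0.48, −0.64 to −0.32). These differences depended on how segments were drawn. When each cell was put in a segment by its own summed marker UMIs, the early ratio of Cyp2e1 was 0.71, and when cells were called by the first calling step alone, the late ratio of Cyp2a5 was 0.14.

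In thinned cells, Cyp2e1 was seen in 4.93% of control and 3.69% of JPI-289 early cells and in 33.0% and 60.2% of late cells. Its unthinned shares were 31.4% and 7.19% in early and 67.5% and 95.4% in late cells. Neutrophils, which should lack it, showed 1.69% and 3.62%, so the early share with JPI-289 was at the background. Cyp2a5 was seen in 5.38% and 15.6% of thinned early cells and in 31.3% and 17.2% of late cells (20.6%, 28.8%, 58.6% and 60.8% unthinned), beside 1.13% and 2.07% of thinned neutrophils.

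Outside the proximal tubule, few members reached counts that allow a comparison. Of 24 members with at least 20 UMIs over the named classes of the control library, 13 were at least 2-fold higher in PT-like cells than in the other classes together, beside 13.9% of all genes, and 6 were lower, beside 31.1%. With JPI-289 the counts were 14 and 6 of 24, beside 14.6% and 32.5%. PT-like cells held 96.6% of the Cyp27b1 UMIs of the control's named classes, 95.4% of those of Cyp2e1 and 94.3% of those of Cyp2j5. Low levels of these genes were also seen in cells that should lack them, such as neutrophils, where Cyp2j5 stood at 46.0 and 14.3 CPM and Cyp2e1 at 16.1 and 32.4 CPM. An estimated 3.77% and 3.61% of PT-like UMIs were free RNA, in which the members summed to 1016 and 698 CPM.

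**Figure D5:**
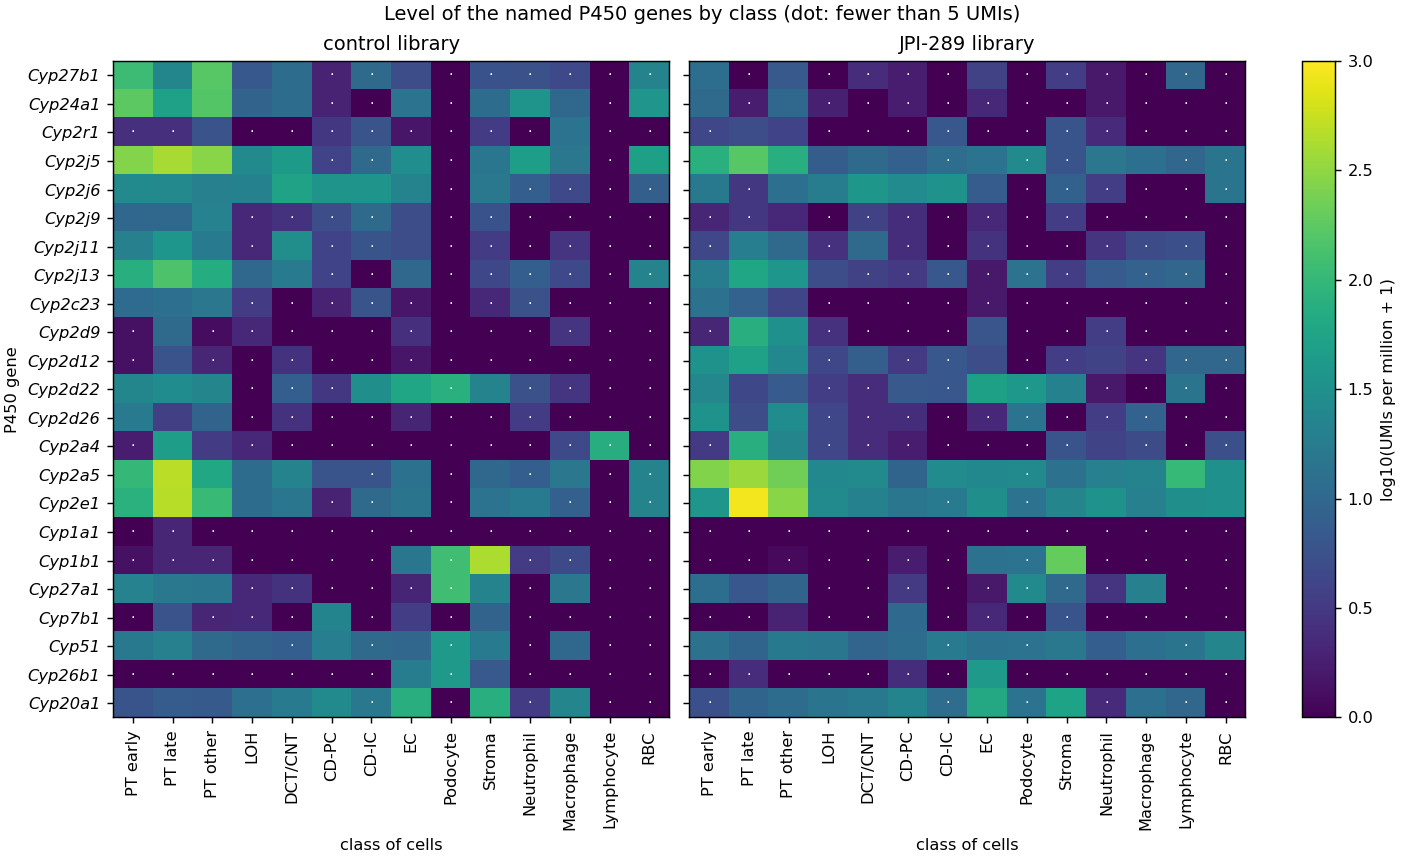
Levels of the 23 named P450 genes (rows) in each class of cells (columns) of the control and JPI-289 libraries, as log10(CPM + 1) from dark (0) to light (3), with a dot where fewer than 5 UMIs were counted. Many genes are brightest in the PT columns, Cyp1b1 is brightest in stroma at 424 and 196 CPM, and Cyp26b1 stands out in endothelium at 17.8 and 40.2 CPM. LOH is loop of Henle, DCT/CNT distal convoluted and connecting tubule, CD-PC and CD-IC collecting duct principal and intercalated cells, EC endothelial cells and RBC red blood cells.

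Cyp1b1, which oxidises estrogens and retinoids and is a known AHR target, was a stromal gene. It had 366 and 79 UMIs in 157 control and 100 JPI-289 stroma-like cells, or 424 and 196 CPM, and was 2.16-fold lower with JPI-289 (log2 ratio −1.11, −1.49 to −0.76). Of the 6 members with at least 20 UMIs in stroma-like cells, it was the only one at least 2-fold lower, and 13.8% of all genes were. In cells thinned to 1000 UMIs it was seen in 25 of 110 and 8 of 66, or 22.7% and 12.1% (30.6% and 23.0% unthinned), and in 0.56% of control and 0 of 580 JPI-289 neutrophils, which allows up to 0.52%. Median depth was 1994 and 1959.5 UMIs in the stroma-like cells. In endothelial cell (EC)-like cells it had 28 and 21 UMIs, at 14.3 and 12.2 CPM.

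Cyp26b1, which degrades retinoic acid, was an endothelial gene. In EC-like cells it had 35 and 69 UMIs, or 17.8 and 40.2 CPM, and was 2.24-fold higher with JPI-289 (log2 ratio 1.16, 0.57 to 1.80). Of 10 members with at least 20 UMIs there, 2 were at least 2-fold higher, beside 5.19% of all genes, and 3 lower, beside 18.6%. The other higher member was Cyp2e1, and the lower ones were Cyp24a1, Cyp2j6 and Cyp2j5. Cyp2e1 and Cyp2j5 in both libraries, and Cyp24a1 in the control, stood no higher than in neutrophils and are not read as differences of this class. Most of the JPI-289 UMIs of Cyp26b1, 53 of 69, lay in a cluster led by Igfbp3, Nmb and Plat. That cluster held 183 JPI-289 cells and 1 control cell, and Cyp26b1 stood there at 75.6 CPM. In the EC-like clusters that both libraries filled, it stood at 7.27 and 15.9 CPM in the one led by Apln and Esm1 and at 28.0 and 15.4 CPM in the one led by Ly6c1 and Plvap. In PT-like cells it had 0 and 2 UMIs.

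In the remaining tubule classes the counts were small. Of 8 members with at least 20 UMIs in distal convoluted and connecting tubule-like cells, 4 were at least 2-fold lower with JPI-289, beside 9.76% of all genes, and none was higher, beside 7.75%. They were Cyp2j5 (24 and 7 UMIs), Cyp2j11 (17 and 7), Cyp2s1 (31 and 18) and Cyp2u1 (16 and 7). Of 7 in loop of Henle-like cells, 2 were higher, Cyp2a5 and Cyp2e1, beside 8.58%, and 1 was lower, Cyp2j5, beside 10.6%. Of 6 in collecting duct principal-like cells, 1 was higher, Cyp2e1, beside 8.44%, and 1 was lower, Cyp7b1, beside 14.1%. For Cyp2j5 and Cyp2e1 these levels were no higher than those of the neutrophils given above. Cyp2j5 stood at 41.9 and 9.79 CPM in the distal cells and 25.3 and 6.61 CPM in the loop of Henle. Cyp2e1 stood at 10.4 and 26.5 CPM in the loop of Henle and 1.02 and 14.1 CPM in principal cells. They were thus at the background and are not read as differences of these classes. Cyp2a5 in the loop of Henle, at 10.4 and 24.0 CPM, was close to the neutrophil level of 6.90 and 19.3 CPM.

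Cyp20a1 and Cyp2d22 were also higher in EC-like than in PT-like cells. Cyp20a1 stood at 75.3 and 63.5 CPM in EC-like cells and at 77.7 and 54.5 CPM in stroma-like cells, against 5.78 and 9.43 CPM in PT-like cells. Cyp2d22 stood at 58.5 and 49.5 CPM in EC-like cells, with a log2 ratio of −0.24 whose interval, −0.66 to 0.18, held 0. Cyp7b1, an oxysterol hydroxylase, was highest in collecting duct principal cells, with 21 and 13 UMIs, at 21.3 and 9.65 CPM (log2 ratio −1.12, −2.26 to −0.08). Cyp2j6 was higher in the distal tubule, at 52.3 and 37.8 CPM in distal convoluted and connecting tubule cells against 22.8 and 10.1 CPM in PT-like cells. Cyp27a1 stood at 14.6 and 19.3 CPM in macrophages, from 8 and 10 UMIs. Cyp51 was spread across classes, at 8.06 to 18.3 CPM in the loop of Henle, collecting duct principal, endothelial, stromal and PT-like classes of the 2 libraries.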

How the data were processed

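The authors deposited UMI counts per gene and barcode for each library, made with Cell Ranger 5.0.1 against mm10. The deposited counts covered 326566 and 273265 barcodes and were not restricted to cells. A JPI-289 and a control kidney were each 1 library, and the counts were used without rounding or normalization by the authors.

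Cells were called in 2 steps after the kit maker's method: barcodes above the 99th percentile of the 3000 deepest divided by 10, then barcodes with at least 500 UMIs that differed from the ambient profile (10000 simulations, false discovery rate 0.01). Barcodes over 50% mitochondrial (545 and 396) were removed. Counts without P450 genes were scaled to 10000 UMIs per cell, reduced to 2000 variable genes and 30 components, and clustered (scanpy 1.11.5, leidenalg 0.10.2, Leiden resolution 1.0, 20 neighbours). A cluster was named by its leading marker list. A cluster with a list score under 2.5 and none of that list's markers among its 10 leading genes stayed unnamed, except that for PT at least 10 detected markers sufficed. This limit was set after the clusters were seen and left the cluster led by Neat1 and Malat1 unnamed. The doublet caller marked 0 and 7 cells and so had not worked, and no doublets were removed.

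Counts were summed over cells of a class and library. Intervals were exact Poisson for levels and exact binomial for ratios and shares. Ratios used a pseudocount of 0.5 UMIs and needed 20 UMIs over both sums. A count of 0 was read as at most 3 UMIs for bounds. The calculation was tested on simulated counts. Named members had at least 100 UMIs in PT-like cells or another class, or were among Cyp27b1, Cyp24a1, Cyp2r1, Cyp1a1, Cyp1b1, Cyp2e1, Cyp7b1, Cyp27a1, Cyp51 and Cyp26b1. Other members named as having no UMI, or as the leading exceptions of a count, were chosen after their values were seen. The members and lists were chosen with earlier results of these data known. An item of the regulator list is not reported here. Positions came from GENCODE vM21, where all 80 symbols matched, and upstream sequences from RefSeq (18 of 23 named members matched). Without an entry were, among others, Cyp24a1, Cyp2d12 and Cyp2d22.

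Alternatives changed the cell calling, mitochondrial limit, UMI minimum, clustering, centring, weighting of cells and segment rule. Leaving out PT-like clusters, and counting the unnamed cluster with them, were added after seeing the data.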

Additional observations from a re-analysis of the deposited data

Results flagged for a closer look

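Cyp2a5 and Cyp2e1 differed between the libraries in opposite directions in different classes of cells, with intervals of counting error that did not include 0. For Cyp2a5, the log2 ratio (JPI-289 to control) was −0.48 in late PT-like cells, and it was 1.44 in early PT-like cells, 1.16 in loop of Henle-like cells and 0.99 in EC-like cells. For Cyp2e1, the ratio was −1.19 in early PT-like cells, and it was 0.89 in late PT-like cells, 1.30 in loop of Henle-like cells, 1.18 in EC-like cells and 3.25 in collecting duct principal-like cells, the last from 1 and 19 UMIs. The differences between classes were not tested, since each class held 1 library per group. Cyp2e1 and Cyp2a5 were also higher in JPI-289 neutrophils, at 16.1 and 32.4 CPM and at 6.90 and 19.3 CPM, and the levels of Cyp2e1 in loop of Henle-like, EC-like and principal-like cells were no higher than in those neutrophils.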

How the results depend on the processing

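Some of the values that changed are given here. With a minimum of 1 UMI, 21 of 38 members were at least 2-fold lower in PT-like cells and 9 higher (32.9% and 12.7% of all genes). Over all barcodes 3 of 27 were higher (7.31% of all genes). Leaving out each PT-like cluster in turn gave 3 to 6 higher of 20 to 22 members, beside 7.70% to 11.5% of all genes. The count of members at least 2-fold higher in the late than in the early control clusters was 5 of 13 with the first step of cell calling alone (8.54% of all genes), 5 of 18 with cells split by their segment marker UMIs (7.07%), 6 of 16 with the mean over cells (5.70%) and 13 of 31 with a minimum of 1 UMI (13.9%). With JPI-289 it was 10 of 14 with the first step alone (18.7%). Leaving out clusters in turn turned the sign of Cyp2a4 (−1.30 to 3.81) and Cyp2e1 (−0.55 to 1.98). The early ratio of Cyp2e1 was 0.71 with cells split by segment marker UMIs, and the late ratio of Cyp2a5 was 0.14 with the first step alone. The cause was not tested. Of 503 values under all alternatives, most of them of single members, 85 changed by more than the margin and 4 were reversed. The margin of a ratio was its own interval of counting error, which is wide at low counts. The margin of a count was a fixed fold. Settings that could not change a ratio were counted as well, so these tallies do not measure stability. A ratio over all PT-like cells counted as reversed only if it was at least 2-fold at first. Sign changes of members nearer 0, such as Cyp51 and Cyp2r1, were thus not counted. Of 117 summaries 10 changed by more than the margin and none was reversed. Summaries that are counts could not be labelled reversed, so a reversal could show only in the members' median. The late over early comparison with JPI-289 had no value with cells of at least 1000 UMIs, at Leiden resolution 0.5 or with P450 genes kept in the clustering, where no late cluster was named. No paired analysis was possible because each group held 1 library. Members under 20 UMIs could not be compared at this depth.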
